A study of Mus musculus with 2 samples.

Results

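MicroRNA host transcripts are long RNAs that carry microRNA hairpins, and 4 of them were described here in the nuclear RNA of mouse macrophages: Mir155hg, Mir22hg, Dleu2 and Mir17hg. They were chosen by gene symbol, and all 4 were found among the 55536 mouse genes of the deposited gene tables. The libraries came from 1 condition. Macrophages grown from C57BL/6J bone marrow, as primary cells, were exposed to Lipid A at 100 ng/ml for 12 h, kept for 12 h after wash-out, and exposed to the same dose anew for 120 min. The receptor TLR4 recognises Lipid A, the membrane anchor of bacterial lipopolysaccharide. Sex, age and developmental stage were not recorded in the labels. RNA of the nuclear fraction was depleted of ribosomal RNA and sequenced as 2 biological replicates under 1 donor label, so separate animals are not stated, and differences between the replicates may be technical. In the labels the fraction is named both nucleus and nucleoplasmic. Replicate 1 started from 1 µg of RNA and replicate 2 from 500 ng, so input amount and replicate cannot be told apart. Untreated cells were not analysed here, so no level below is a response to Lipid A.

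A microRNA gene is first transcribed as a long primary transcript. In the nucleus the enzyme Drosha and its partner Dgcr8 cut the hairpin out of it. Exportin-5 (Xpo5) carries the hairpin to the cytoplasm, where Dicer1 trims it and an Argonaute protein takes up one strand. Bases 2 to 8 of that strand, the seed, guide it to target mRNAs. Mir155hg, known in humans as BIC, is the primary transcript of miR-155 and is known to be induced in macrophages by ligands of Toll-like receptors. Mir17hg carries the miR-17-92 cluster, known as a target of Myc and for its role in lymphoma. Dleu2 was named after the human locus deleted in chronic lymphocytic leukaemia and carries Mir15a and Mir16-1. Mir22hg carries Mir22. The assay counted the long host RNA, and mature microRNAs were not measured.

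The microRNAs inside the 4 hosts are shown to identify what each host would yield, with one main strand for each of the 10 annotated hairpins. The sequences are those of RefSeq on GRCm38.p6, read 5′ to 3′, and capitals mark the seed.
Mir155hg, miR-155-5p: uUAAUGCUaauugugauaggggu
Mir22hg, miR-22-3p: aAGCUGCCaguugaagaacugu
Dleu2, miR-15a-5p: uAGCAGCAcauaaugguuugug
Dleu2, miR-16-5p: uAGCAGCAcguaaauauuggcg
Mir17hg, miR-17-5p: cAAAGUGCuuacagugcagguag
Mir17hg, miR-20a-5p: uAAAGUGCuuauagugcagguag
Mir17hg, miR-18a-5p: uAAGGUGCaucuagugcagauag
Mir17hg, miR-19a-3p: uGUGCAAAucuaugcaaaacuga
Mir17hg, miR-19b-3p: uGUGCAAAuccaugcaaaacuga
Mir17hg, miR-92a-3p: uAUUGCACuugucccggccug

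Among the 19 mature strands that the table holds for these hairpins, 3 seeds were shared by 2 strands each. The seed AGCAGCA was shared by miR-15a-5p and miR-16-5p, both from Dleu2. AAAGUGC was shared by miR-17-5p and miR-20a-5p, and GUGCAAA by miR-19a-3p and miR-19b-3p, all from Mir17hg. No seed was shared between different hosts.

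The hosts differ in where the hairpin lies relative to the annotated exons, and this decides which counts can include it. Mir155 lay in exon 2 of both annotated Mir155hg transcripts, at bases 159 to 223 of the 1264 bases of Mir155hg-201. Mir22 lay in exon 2 of both Mir22hg transcripts, at bases 241 to 335 of the 1752 bases of Mir22hg-202. All 6 hairpins of Mir17hg lay in exon 2 of its only transcript, from base 480 (Mir17) to base 1315 (Mir92-1) of 3536. Mir15a and Mir16-1 lay in no complete exon of any of the 15 Dleu2 transcripts. The hairpin rows themselves had 0 counts and an effective length of 0 in the gene tables of both libraries, so only the host rows carry a value there. The Mir155 hairpin is printed to show the base-paired stem that is cut from the host with most counts (RefSeq, GRCm38.p6, chr16:84714140-84714204, plus strand), and capitals mark its mature strands, miR-155-5p first.
Mir155 hairpin: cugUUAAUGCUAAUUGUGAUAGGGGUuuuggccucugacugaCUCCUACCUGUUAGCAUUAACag

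Total expected counts on mouse genes were 28450309 in replicate 1 and 16940220 in replicate 2. A gene is called detected here when both libraries give it TPM 1 or more, TPM being a length-corrected share of all RNA in a library. All 7 macrophage markers (Lyz2, Adgre1, Csf1r, Cd68, Spi1, Fcgr1, Mertk) were detected, with a summed TPM of 2395 in replicate 1 and 2473 in replicate 2. In the test of scaled counts described below, all 7 were called higher in replicate 1, beside 30.2% of all tested genes. Their median log2 ratio of replicate 1 over replicate 2, relative to all genes, was 0.75. Of 22 markers of T cells, B cells, neutrophils, fibroblasts, endothelial, erythroid and mast cells, only Kdr was detected in the gene tables, with TPM 11.96 in replicate 1 and 8.30 in replicate 2. Cd3d, Pecam1 and Alas2 were also detected by the second tool, the authors' other transcript table. Fewer cells of a type and less RNA per cell cannot be told apart in such bulk RNA. The libraries differed in composition. Short RNAs took 72.9% of all TPM in replicate 1 and 53.9% in replicate 2, and mitochondrial genes took 4.15% of counts in replicate 1 and 10.3% in replicate 2.

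Mir155hg was the most abundant of the 4 hosts in each library and by each tool. Levels are deposited TPM. Mir155hg (ENSMUSG00000097418.7, a lincRNA gene at 84703167 to 84715245 on the plus strand of chromosome 16, mm10) had 10148 expected counts in replicate 1 and 8166 in replicate 2. Its TPM was 200.1 in replicate 1 and 371.8 in replicate 2, a mean of 286 ± 121 (SD, n = 2). The deposited credibility interval of its TPM was 192.6 to 200.3 in replicate 1 and 345.5 to 361.0 in replicate 2, and these did not overlap. They surround the posterior mean (196.5 in replicate 1 and 353.3 in replicate 2), which is why the TPM of replicate 2 lies outside its own. By the second tool its TPM was 113.6 in replicate 1 and 269.3 in replicate 2. Its mean TPM ranked 6 of 10155 long non-coding genes and was higher than that of 99.7% of protein-coding genes. Neat1, the scaffold RNA of nuclear paraspeckles, ranked directly above it at a mean TPM of 494 ± 7.16 (SD, n = 2). Gm20559 ranked directly below it at 241 ± 70.2 (SD, n = 2). The ranges of Mir155hg and Gm20559 overlapped between the libraries, since Gm20559 had TPM 191.7 in replicate 1 and 291.0 in replicate 2.

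Mir22hg (ENSMUSG00000085148.1, a processed_transcript gene at 75461539 to 75466676 on the plus strand of chromosome 11) was next. It had 5117 expected counts in replicate 1 and 2578 in replicate 2. Its TPM was 93.47 in replicate 1 and 92.62 in replicate 2, a mean of 93.0 ± 0.601 (SD, n = 2). That small SD holds for this tool only, because the second tool gave TPM 72.7 in replicate 1 and 112.9 in replicate 2, with the libraries in the opposite order. Mir22hg ranked 13 of the 10155 long non-coding genes, between Lncpint (mean TPM 108 ± 34.8, SD, n = 2) and Gm28872 (86.0 ± 3.97). Lncpint overlapped it, with TPM 83.03 in replicate 1 and 132.2 in replicate 2. Gm28872 stayed below it, with TPM 88.82 in replicate 1 and 83.20 in replicate 2.

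Dleu2 (ENSMUSG00000097589.9, a processed_transcript gene at 61602839 to 61682373 on the minus strand of chromosome 14) had 4680 expected counts in replicate 1 and 4346 in replicate 2. Its TPM was 43.87 in replicate 1 and 68.50 in replicate 2, a mean of 56.2 ± 17.4 (SD, n = 2). By the second tool it was 31.6 in replicate 1 and 62.5 in replicate 2, so both tools put replicate 2 higher. Dleu2 ranked 23 among long non-coding genes. Its neighbours in rank were 2900097C17Rik (mean TPM 56.8 ± 16.8, SD, n = 2) and another microRNA host, Mir142hg (55.0 ± 51.7), which carries the blood-cell microRNA gene Mir142. Mir142hg had TPM 91.54 in replicate 1 and 18.40 in replicate 2, on 236 and 24 expected counts, so the values of both neighbours overlapped those of Dleu2.

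Mir17hg was the lowest of the 4 and the least even between libraries. The gene (ENSMUSG00000089726.2, a lincRNA gene at 115042879 to 115046727 on the plus strand of chromosome 14) had 443 expected counts in replicate 1 and 762 in replicate 2. Its TPM was 2.72 in replicate 1 and 10.94 in replicate 2, a mean of 6.83 ± 5.81 (SD, n = 2). The deposited credibility intervals, 2.43 to 2.93 in replicate 1 and 9.67 to 11.1 in replicate 2, did not overlap. It was lower still by the second tool, at TPM 1.31 in replicate 1 and 7.18 in replicate 2. It ranked 179 of 10155 long non-coding genes and above 78.0% of protein-coding genes. Gm20540 (mean TPM 6.92 ± 2.26, SD, n = 2) and Gm26811 (6.80 ± 3.64) stood beside it, within its own range.

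**Figure D1:**
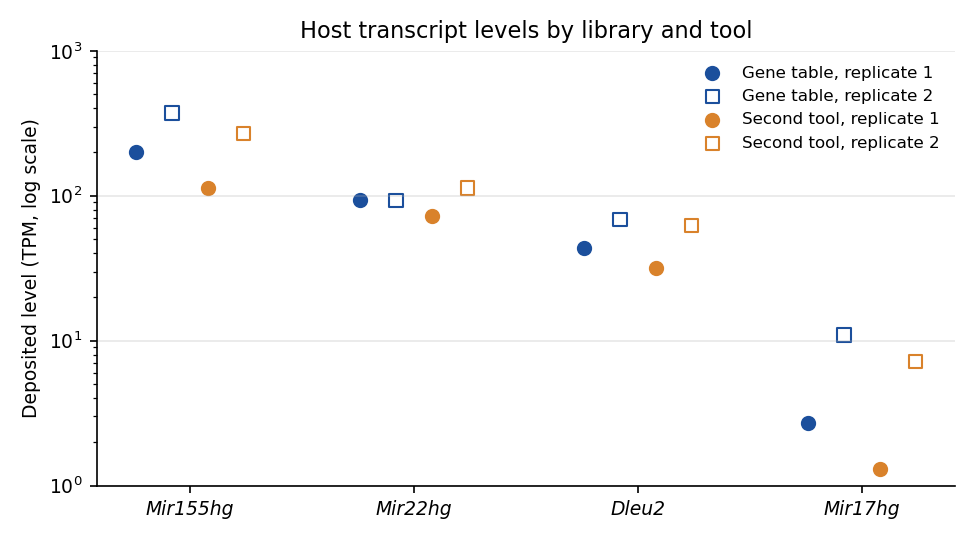
Deposited TPM on a log axis for each host gene, with filled circles for replicate 1, open squares for replicate 2, blue for the gene table and orange for the second tool. Mir155hg is highest (200.1 and 371.8 TPM in the gene table) and Mir17hg lowest (2.72 and 10.94 TPM), and the blue symbols of Mir22hg nearly coincide while its orange ones do not.

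The order Mir155hg, Mir22hg, Dleu2, Mir17hg was the same in both libraries and by both tools, but the distances were not. In TPM, Mir155hg was 2.14-fold above Mir22hg in replicate 1 and 4.01-fold in replicate 2. Mir22hg was 2.13-fold above Dleu2 in replicate 1 and 1.35-fold in replicate 2. Dleu2 was 16.1-fold above Mir17hg in replicate 1 and 6.26-fold in replicate 2. For the same steps the second tool had 1.56-fold and 2.39-fold, 2.31-fold and 1.81-fold, and 24.1-fold and 8.71-fold, replicate 1 before replicate 2 in each pair. On the log2 scale of TPM the steps averaged 1.55 ± 0.64, 0.76 ± 0.46 and 3.33 ± 0.97 (SD, n = 2 each). The ranges of neighbouring hosts did not overlap by either tool, although by the second tool the lower Mir155hg value (113.6 in replicate 1) and the higher Mir22hg value (112.9 in replicate 2) nearly met. An exact paired permutation test over 2 libraries cannot reach a p below 0.5, so none is given. The expected counts had Mir155hg first and Mir17hg last, but put Dleu2 above Mir22hg in replicate 2; counts are not corrected for length.

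Since short RNAs filled a different part of each library, TPM was also rescaled to the sum over protein-coding and long non-coding genes. The rescaled TPM of Mir155hg was 907 in replicate 1 and 1461 in replicate 2. For Mir22hg it was 424 in replicate 1 and 364 in replicate 2, and for Dleu2 199 in replicate 1 and 269 in replicate 2. For Mir17hg it was 12.3 in replicate 1 and 43.0 in replicate 2. The order of the 4 hosts was unchanged on this scale.

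All 4 hosts differed between the libraries beyond counting error, which was also true of 59.9% of all 14698 genes tested, so this count says little about the hosts. Counts scaled by TMM were compared with an exact two-sided binomial test and Benjamini-Hochberg adjustment over all tested genes. The log2 ratio of replicate 1 over replicate 2 was 0.40 for Mir22hg (adjusted p = 5.5e-31, exact binomial test). The other hosts were lower in replicate 1, by the same test. The log2 ratio was -0.27 for Mir155hg (adjusted p = 4.4e-35), -0.48 for Dleu2 (adjusted p = 7.9e-54) and -1.37 for Mir17hg (adjusted p = 7.6e-58). The median of all tested genes was -0.01, 30.2% of genes were called higher in replicate 1 and 29.7% higher in replicate 2. Scaling by library size moved that median to -0.17, and the share of calls that were higher in replicate 1 was then 36.0%, against 50.4% with TMM. The direction of the 4 hosts was the same under both scalings.

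Set against the spread of all genes, Mir17hg stood farther out than the other hosts. The common biological coefficient of variation between the libraries was 0.335. The ratio of Mir155hg was larger in size than that of 31.01% of tested genes, that of Mir22hg than 46.8% and that of Dleu2 than 51.4%. The ratio of Mir17hg was larger in size than that of 91.5% of tested genes. With the second tool, the log2 ratio of replicate 1 over replicate 2 was 0.08 for Mir155hg (adjusted p = 2.1e-05, exact binomial test), the opposite direction. It was 0.67 for Mir22hg, -0.17 for Dleu2 and -1.07 for Mir17hg with that tool, in the direction the expected counts gave. Such a test sees counting error alone, and what it compares is the libraries.

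The libraries also differed by base composition. The GC content of the transcript with the highest mean TPM was 37.9% for Mir155hg, 44.7% for Mir22hg, 35.2% for Dleu2 and 40.1% for Mir17hg. When the tested genes were cut into 20 bins by GC content, the median log2 ratio of replicate 1 over replicate 2 was -0.82 in the lowest bin, which holds Mir155hg and Dleu2, and 0.54 in the highest. It was -0.18 in the bin of Mir22hg and -0.48 in that of Mir17hg. Mir155hg, Mir22hg and Dleu2 lay above their bin's median by 0.54, 0.59 and 0.34, and Mir17hg differed from its own by -0.89. The part of GC content in the library differences was not tested.

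**Figure D2:**
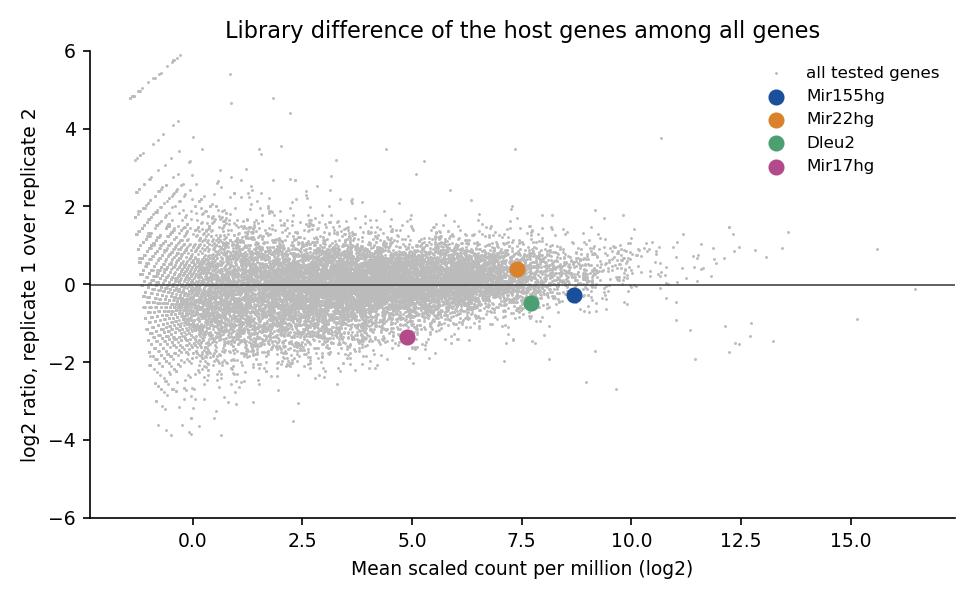
The log2 ratio of scaled counts, replicate 1 over replicate 2, against the log2 of the mean scaled CPM for the 14698 tested genes (grey). The 4 hosts are in colour, a line marks the median of all genes, and 26 genes lie outside the plotted range. Mir22hg lies above the line, Mir155hg and Dleu2 slightly below, and Mir17hg at -1.37 lies at the lower edge of the cloud.

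Mir155hg was read almost entirely as the short form, Mir155hg-201. It starts at 84713023 and has 2 exons, whereas Mir155hg-202 starts 9.86 kb upstream, at 84703167, and joins another first exon to the same exon 2. Mir155hg-201 held 99.9% of the gene's TPM in replicate 1 and 100% in replicate 2. By the second tool its share was 95.3% in replicate 1 and 99.0% in replicate 2. Mir155hg-202 had 10.8 expected counts in replicate 1 and 0 in replicate 2, against 735 and 165 estimated counts by the second tool. RefSeq places the start of the gene at that of Mir155hg-201, and the sequence around it is printed because nearly all counts of the most abundant host were assigned to this start (GRCm38.p6, chr16:84712773-84713072, plus strand). Lower case marks the 250 bases before the start and capitals the first 50 bases of Mir155hg-201.
Mir155hg promoter: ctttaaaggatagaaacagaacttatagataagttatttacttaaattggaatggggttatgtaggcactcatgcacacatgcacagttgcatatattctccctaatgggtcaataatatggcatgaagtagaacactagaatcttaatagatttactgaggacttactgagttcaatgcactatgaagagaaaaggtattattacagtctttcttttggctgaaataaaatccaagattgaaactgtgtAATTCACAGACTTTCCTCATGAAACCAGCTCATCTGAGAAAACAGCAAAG

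The RefSeq windows of 300 bases around the starts of the 4 hosts were searched on both strands for 5 short motifs. The motifs were TGANTCA (AP-1), TATAAA (the TATA box), CACGTG (an E-box bound by Myc and other factors), TTTNGCGC (E2F) and the NF-kB consensus. They occur in 7.81%, 13.6%, 7.15%, 1.38% and 8.46%, in that order, of 32851 mouse promoter windows of the same length. The Mir155hg, Mir22hg and Mir17hg windows held none of these letters. The Dleu2 window held CACGTG at -178 to -173 and TATAAA at 15 to 20 relative to the start of Dleu2-208. Dleu2-208 has the outer first exon of Dleu2. Transcripts with that exon held 3.81% of Dleu2 expected counts in replicate 1 and 2.00% in replicate 2. The window does not reach the inner starts described below. For Mir17hg the RefSeq start lies 1511 bases from the GENCODE start, so its window is not the start of Mir17hg-201. A match is a string of letters and not a shown site, and its absence from a window says nothing about a factor.

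The forms of Mir22hg were divided differently by the tools. Mir22hg-202, with 3 exons and 1752 bases, held 68.8% of the gene's TPM in replicate 1 and 84.0% in replicate 2. Mir22hg-201, with 2 exons and 449 bases, held 31.2% in replicate 1 and 15.98% in replicate 2. With the second tool Mir22hg-202 held 42.7% in replicate 1 and 42.0% in replicate 2, so the short form led in both libraries. Of expected counts, Mir22hg-202 held 94.0% in replicate 1 and 97.2% in replicate 2, since a short transcript needs few counts for a given TPM. The forms share the Mir22 hairpin, start at different bases and part at the end of exon 2, where Mir22hg-201 continues for 172 bases past the splice site used by Mir22hg-202. The sequence at that point is shown because it is one of the places where the forms differ (mm10, chr11:75463838-75463877, plus strand), and capitals mark the first intron bases of Mir22hg-202.
Mir22hg exon 2 end: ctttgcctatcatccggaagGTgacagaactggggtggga

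Mir22hg also shares 206 exonic bases, 10.7% of its own, with Tlcd2, a protein-coding gene on the same strand that starts inside it. Tlcd2 had 40.01 expected counts in replicate 1 and 13 in replicate 2, against 5117 and 2578 for Mir22hg, so few counts were assigned to the neighbour. Of the 1888 words of 31 bases in Mir22hg, 177 also occur in Tlcd2. The reads on those bases cannot be assigned by position alone.

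**Figure D3:**
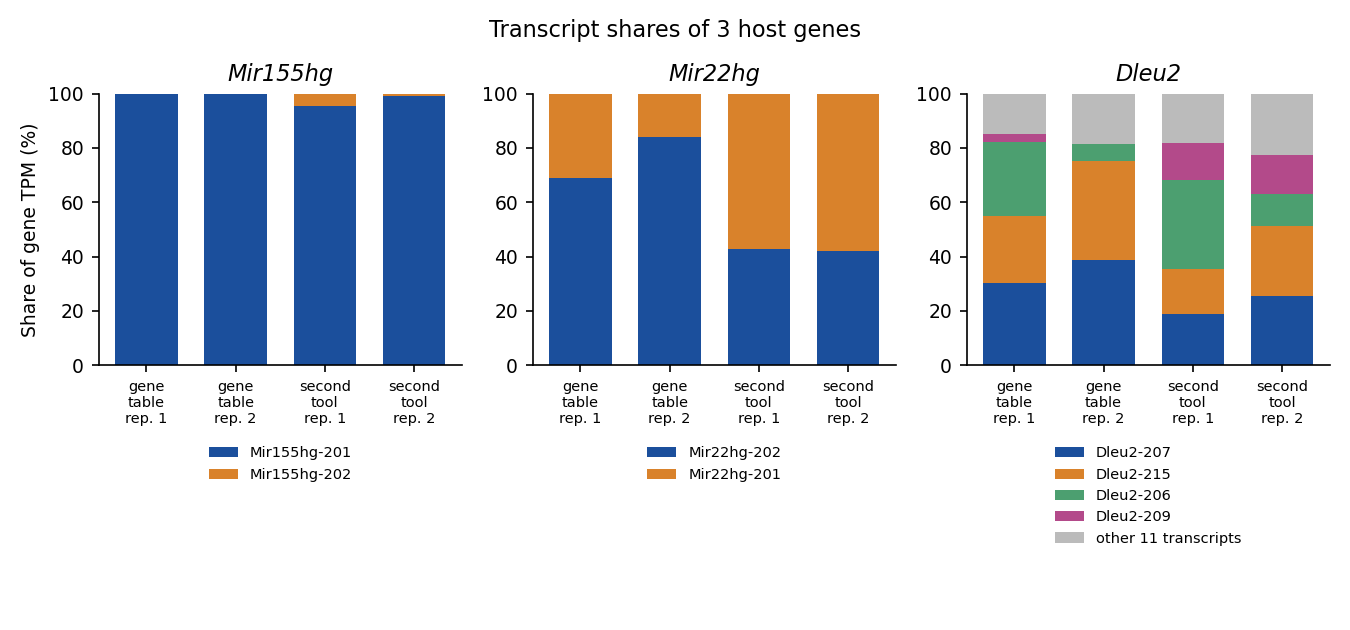
Share of each gene's TPM (%) on its transcripts, in stacked bars for the gene table (left pair) and the second tool (right pair), replicates 1 and 2 within each pair. Mir155hg-201 fills 95.3% or more of every Mir155hg bar, Mir22hg-202 falls below 50% with the second tool only, and no Dleu2 transcript reaches 40% in any bar.

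Dleu2 was spread over many annotated transcripts, none of which has a whole hairpin in its exons. Most of its expected counts, which are not corrected for length, lay on long forms that end or begin beside the hairpins. Of its 15 transcripts, 5 had 0 expected counts in each library, and 4 had 0 in both. The second tool left 2 at 0 in both. Dleu2-207, with 3 exons and 3530 bases, held 30.2% of the gene's TPM in replicate 1 and 38.8% in replicate 2. With the second tool it held 19.1% in replicate 1 and 25.4% in replicate 2. Its 3′ end lies 189 bases upstream of the Mir15a hairpin. Dleu2-215, a single exon of 4098 bases of GENCODE's type TEC, which marks transcripts still in need of experimental evidence, held 24.7% in replicate 1 and 36.5% in replicate 2, and 16.5% and 26.0% with the second tool.

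Dleu2-206 and Dleu2-209 show how strongly short forms weigh in TPM. Dleu2-206, of 318 bases, held 27.3% of Dleu2 TPM in replicate 1 and 6.02% in replicate 2, on 53.7 and 9.05 expected counts. With the second tool it held 32.7% in replicate 1 and 11.5% in replicate 2. Dleu2-209, of 352 bases, held 2.80% in replicate 1 and was at 0 in replicate 2, whereas the second tool gave it 13.4% and 14.6%. Neither transcript reaches the hairpins, since both end more than 11 kb upstream.

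The start sites of Dleu2 fell into an outer and an inner group. The 8 transcripts with the outer first exon, near 61682373, held 3.81% of Dleu2 expected counts in replicate 1 and 2.00% in replicate 2. The 95% Wilson intervals of these shares, which cover counting error only, were 3.29% to 4.39% and 1.63% to 2.46%. The 5 with an inner first exon, near 61648822, held 50.4% in replicate 1 and 50.5% in replicate 2. The 2 single-exon transcripts held 45.8% in replicate 1 and 47.6% in replicate 2. By TPM the outer group held 36.6% in replicate 1 and 13.4% in replicate 2, and Dleu2-206 alone held 27.3% in replicate 1 and 6.02% in replicate 2. With the second tool the outer group held 6.77% of counts in replicate 1 and 4.46% in replicate 2, so its low share of counts was common to both tools. Its share of TPM with that tool was higher, 52.0% in replicate 1 and 32.5% in replicate 2.

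Dleu2-207 and Dleu2-215 leave a gap of 406 bases (61631893 to 61632298), which holds all of Mir15a and all but 13 bases of Mir16-1. Dleu2-207, Dleu2-215 and Dleu2-202, a near copy of Dleu2-207 that stops 50 bases earlier, held 93.8% of Dleu2 expected counts in replicate 1 and 96.9% in replicate 2. With the second tool these 3 transcripts held 87.7% in replicate 1 and 90.5% in replicate 2. By TPM they held 57.3% in replicate 1 and 82.2% in replicate 2, and with the second tool 36.6% in replicate 1 and 55.9% in replicate 2. The Mir16-1 hairpin is printed with capitals on the 13 bases that are also the 5′ end of Dleu2-215 (RefSeq, GRCm38.p6, chr14:61631880-61631972, minus strand), and they lie past the 3′ mature strand.
Mir16-1 hairpin: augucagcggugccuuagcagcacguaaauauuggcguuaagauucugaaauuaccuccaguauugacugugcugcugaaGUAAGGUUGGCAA

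The counts in the gap itself can be read only from the hairpin rows. The gene tables listed Mir15a and Mir16-1 at 0 with an effective length of 0. The second tool gave Mir15a 26 counts in replicate 1 and 23 in replicate 2, and Mir16-1 2 counts in replicate 1 and 0 in replicate 2. Introns as such were not counted, so RNA that spans the gap unspliced was not measured. Annotated same-strand genes within Dleu2 that share 0 of its exonic bases did have counts. Gm37472 had 1263 expected counts in replicate 1 and 1237 in replicate 2, Gm37420 had 636 and 873, and Gm27010 had 110 in each. Whether these reads come from Dleu2 RNA was not tested. Exons of Dleu2 also share sequence with other genes, 7.77% of its words of 31 bases, against 9.375% for Mir22hg, 0.855% for Mir155hg and 0 for Mir17hg. The shared words of Dleu2 were spread over 3674 partner genes, against 1 for Mir22hg. Gm26916, on the opposite strand, was its largest single partner, with 296 of the 892 shared words, 352 shared exonic bases and 0 expected counts in both libraries. Gm27845, Gm27747 and Gm27972, misc_RNA genes on the opposite strand, overlapped 114, 85 and 137 of its exonic bases. Gm27972 had 2.75 expected counts in replicate 1 and 0.8 in replicate 2, and the other misc_RNA genes had 0. The strand setting is not given in the sources used here, so counts from these opposite-strand genes cannot be told apart.

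**Figure D4:**
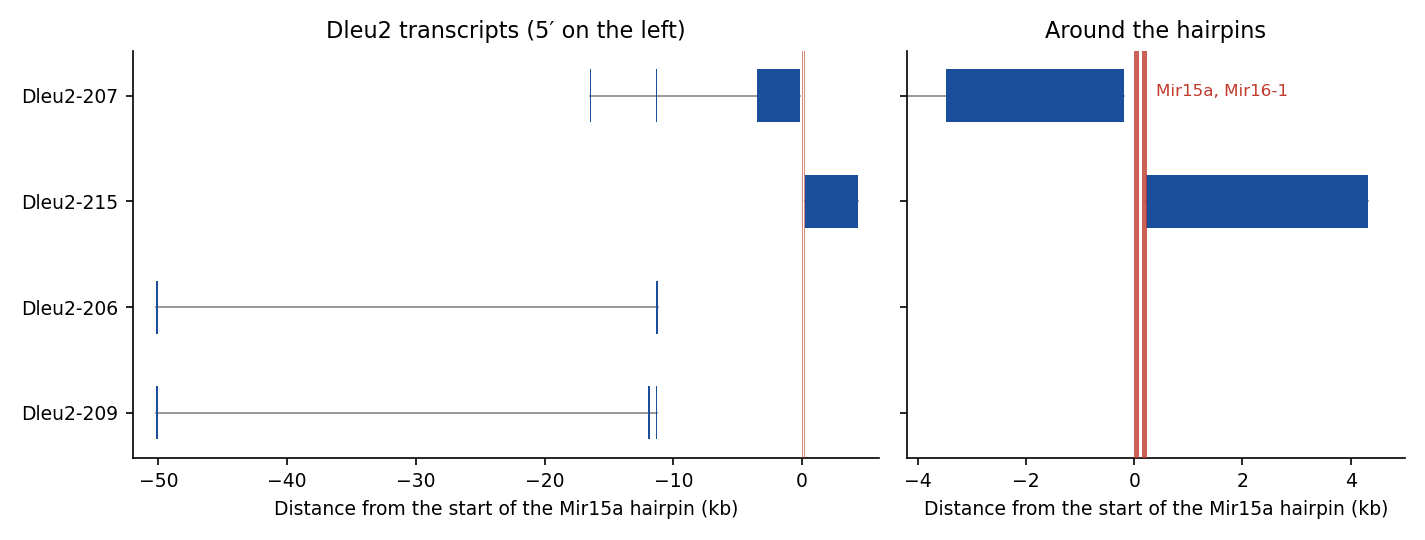
Exons (blue bars) and introns (grey lines) of the 4 named Dleu2 transcripts by distance from the start of the Mir15a hairpin in kb, 5′ on the left, with the whole range on the left and the surroundings of the hairpins on the right; red lines mark the Mir15a and Mir16-1 hairpins. Dleu2-207 ends before the hairpins and Dleu2-215 begins at the end of Mir16-1, while Dleu2-206 and Dleu2-209 end more than 11 kb upstream.

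Other annotated microRNA hosts were read in the same libraries. Of the 10 genes named as hosts in the annotation (Mir followed by a number and hg), 5 were detected. Besides 3 of the 4 hosts described here, these were Mir142hg and Mir99ahg, the host of Mir99a, Mirlet7c-1 and Mir125b-2. Mir99ahg had TPM 25.31 in replicate 1 and 63.00 in replicate 2. Mir133a-1hg (TPM 3.62 in replicate 1 and 5.36 in replicate 2) and Mir670hg (1.94 and 7.58) were detected by the second tool, and the gene tables put both below TPM 0.3. In a wider list, chosen after the files were seen, 116 long non-coding genes span a microRNA gene on their strand. Of these, 24 were detected and 60 had 0 counts in both libraries, and of all 10155 long non-coding genes 6.36% were detected. Mir155hg, Mir22hg and Dleu2 were the highest of the 116 by mean TPM and Mir17hg was lower than 8 others, among them F630028O10Rik, which spans Mir223 (TPM 11.39 in replicate 1 and 15.52 in replicate 2).

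Of 15 listed hosts that are also genes of other function, 13 were detected. For comparison, 39.6% of all protein-coding genes were. The highest 5 by mean TPM were Vmp1, a membrane protein of autophagy whose gene overlaps Mir21a, then Evl, Huwe1, Dnm2 and Srebf2. Vmp1 had TPM 412.2 in replicate 1 and 324.45 in replicate 2, above Mir155hg in replicate 1 and below it in replicate 2. Mcm7 was detected by the gene tables (TPM 1.45 in replicate 1 and 2.16 in replicate 2) but not by the second tool (0.902 and 2.01).

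The RNAs of the processing machinery covered a wide range of levels. Of 23 listed genes, 21 were detected by both tools. The exceptions were Lin28a and Lin28b, inhibitors of let-7 maturation, with 1 count in all. In the nuclear cutting step, Drosha stood at TPM 4.28 in replicate 1 and 5.82 in replicate 2. Its partner Dgcr8 had TPM 4.54 in replicate 1 and 10.13 in replicate 2. The tools placed Dgcr8 differently, since the second tool gave it TPM 9.37 in replicate 1 and 36.0 in replicate 2. For Drosha the second tool gave 2.21 in replicate 1 and 4.12 in replicate 2. In the gene tables the helicases Ddx5 and Ddx17, partners of Drosha, were far higher, at mean TPM 263 ± 58.5 and 98.4 ± 29.7 (SD, n = 2 each). Tut7, which adds uridines to hairpins, averaged 51.4 ± 9.66, the splicing factor Srsf3 44.7 ± 12.0 and Ago3 18.3 ± 8.80 (SD, n = 2 each). In later steps, Xpo5 averaged 4.07 ± 1.53, Dicer1 9.60 ± 3.44 and Ago2 9.38 ± 2.66 (SD, n = 2 each). Between the libraries, 10 of the 21 tested genes were called higher in replicate 1 and 4 higher in replicate 2, beside 30.2% and 29.7% of all tested genes, and their median log2 ratio relative to all genes was 0.07.

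**Figure D5:**
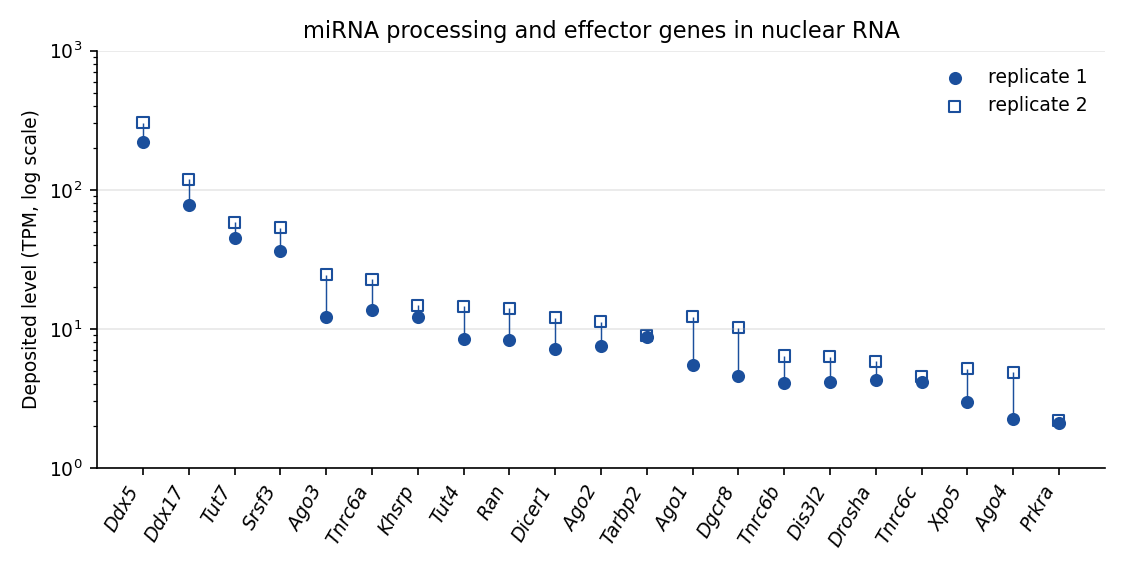
Deposited TPM of the gene tables on a log axis for the 21 detected genes of microRNA processing and action, in order of mean TPM. Filled circles are replicate 1 and open squares replicate 2, with a line joining them. Ddx5 and Ddx17 stand highest, while Drosha (4.28 and 5.82 TPM) and Dgcr8 (4.54 and 10.13 TPM) lie in the lower part.

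Transcription factors reported at the promoters of these hosts were detected, 8 of 9. Nfkb1, the gene of the NF-kB subunit p50, had TPM 117.4 in replicate 1 and 178.4 in replicate 2. Junb, an AP-1 subunit, had TPM 89.49 in replicate 1 and 42.39 in replicate 2. The level of Jun, another AP-1 subunit, was TPM 26.48 in replicate 1 and 11.87 in replicate 2. Rela averaged 18.7 ± 0.552 and Trp53, the gene of p53, 12.5 ± 3.29 (SD, n = 2 each). Fosb was the exception, with TPM 0.0900 in replicate 1 and 0.430 in replicate 2.

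Of the genes reported as targets of miR-155, 9 of 10 were detected. Ikbke, an inducible kinase of the interferon response, was highest with TPM 274.1 in replicate 1 and 326.3 in replicate 2. Maf averaged 66.3 ± 23.0, Spi1, the gene of the macrophage factor PU.1, 48.6 ± 0.962, Tab2 43.7 ± 18.0 and Inpp5d, the gene of the phosphatase SHIP1, 18.96 ± 2.69 (SD, n = 2 each). Cebpb, below the highest 5 and named after its values were seen, had TPM 30.04 in replicate 1 and 5.19 in replicate 2. These are levels in 1 condition, and an effect of miR-155 on them was not measured.

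The targets listed for the other microRNAs were described in the same way. For miR-17-92, 8 of 9 were detected, led by Sirpa, a surface receptor of macrophages, with TPM 703.4 in replicate 1 and 622.8 in replicate 2. Thbs1 averaged 120 ± 44.3, Cdkn1a 81.5 ± 16.8, Bcl2l11 33.7 ± 10.7 and Tgfbr2 16.6 ± 2.20 (SD, n = 2 each), and E2f2 was the exception at 0.295 ± 0.0354. For miR-15 and miR-16, 4 of 5 were detected, with Cdk6 highest at 35.4 ± 8.27 (SD, n = 2), then Ccnd1, Ccne1 and Bcl2 between 1.99 and 4.78 mean TPM. Chek1 had TPM 0.840 in replicate 1 and 0.270 in replicate 2. For miR-22, 3 of 4 were detected, among them Hdac4 at 2.20 ± 0.403 and Esr1 at 2.15 ± 0.410 (SD, n = 2 each), while Ppara had 0 counts in both libraries, which allows up to 3 in each.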

How the data were processed

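Nuclear RNA without ribosomal RNA was measured in 2 samples of 1 group. The deposited tables per gene and per transcript hold, per the file headers, expected counts, TPM and, per transcript, a percent of gene TPM; their column names are those RSEM writes. The authors' second transcript table holds estimated counts and TPM under kallisto's column names and is called the second tool. Credibility bounds of TPM (a signal value in the deposited tables) surround a posterior mean, and their level is not stated there. Alignment, tool versions and strand setting are not given in the sources used here. Per the file headers the build was mm10 with GENCODE M21, from which symbols, types, coordinates and transcripts were taken; RefSeq tables on GRCm38.p6 gave microRNA and promoter sequences.

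Rows naming no mouse gene (1.79% of counts in replicate 1, 0.318% in replicate 2) were left out. Expected counts were rounded to whole numbers, genes were kept from a mean count of 10 upwards, and libraries were scaled by TMM (edgeR 4.0.16, R 4.3.3). Each of 14698 genes was set between the libraries by an exact binomial test, two-sided (scipy 1.17.1) and Benjamini-Hochberg adjustment at 0.05. The spread is edgeR's common biological coefficient of variation from an intercept-only model. The test was tested on simulated data, in which some changed genes with low counts were missed. PCR copies were not marked, so it covers counting error only. Detection needed TPM 1 or more in each library. Long non-coding genes are those of GENCODE's lincRNA, antisense, processed transcript and related types. GC content was computed over the leading transcript of a gene, the one with the highest mean TPM. Shared words of 31 bases were computed over all exons.

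All 4 hosts, every transcript with 10% or more of the gene's TPM in any library by either tool, all hairpins and same-strand or overlapping genes that share exonic bases, neighbours in rank, and the 5 highest of each gene list were named. Of the listed targets, 2 genes are counted but not reported here by name. The hosts and lists were chosen with earlier results of these data known. DESeq2 1.42.0 size factors, library size, no filter, the second tool, posterior mean TPM, rescaled TPM, other detection levels and each replicate alone were tried as alternatives.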

Additional observations from a re-analysis of the deposited data

How the results depend on the processing

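Of 97 alternative values, 85 stayed in direction, in their call and within the spread. These include the levels and shares of 1 library at a time. With 2 libraries, each value always lies within 1 SD of their mean, so those could not move. The mean TPM rescaled over protein-coding and long non-coding genes was 1184 for Mir155hg, 394 for Mir22hg, 234 for Dleu2 and 27.7 for Mir17hg, since short RNAs leave the denominator. The posterior mean TPM of Mir22hg was 90.1, against 93.0. The share on the leading transcript was 97.1% for Mir155hg-201, 42.3% for Mir22hg-202 and 22.2% for Dleu2-207 with the second tool, and by expected counts 95.6% for Mir22hg-202 and 44.3% for Dleu2-207. The log2 ratio of Mir155hg, replicate 1 over replicate 2, was 0.075 with the second tool (adjusted p = 2.1e-05, exact binomial test), against -0.27; the cause was not tested. At TPM 2, 1 miR-22 target was detected. The second tool tested 23709 genes and called 14916, against 8801 called of 14698.

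With 1 library at a time, the level was 200.1 to 371.8 TPM for Mir155hg, 92.62 to 93.47 for Mir22hg, 43.87 to 68.50 for Dleu2 and 2.72 to 10.94 for Mir17hg. The leading shares were 99.9% to 100% for Mir155hg-201, 68.8% to 84.0% for Mir22hg-202 and 30.2% to 38.8% for Dleu2-207. Counts over each list stayed within 1.5 times. No paired analysis was possible because there is 1 group. Depth limits Mir17hg most, with 443 and 762 counts, and 2 libraries limit every SD.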
